A study of Mus musculus with 21 samples.

Results

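The piRNA pathway genes Piwil1, Piwil2, Piwil4, Mov10l1, Mael, Asz1, Ddx4 and Fkbp6 were taken by gene name from the RNA-seq table of germ cells enriched from the testes of juvenile mice. These are 8 of the 37620 genes in the table, and each name matched 1 row. The RNA-seq comprised 12 libraries from C57BL/6J (B6) mice at 12 days post-partum (dpp), which the labels call spermatocytes and wild type (wt). There were 4 sample numbers (186wt, 343wt, 444wt, 456wt), each sequenced as 3 libraries, and the study describes 4 replicates. No treatment, genotype or age separated the 4 numbers, so each difference given here is a difference between replicate preparations of the same kind of cells. The labels do not say whether animals were pooled, or whether the 3 libraries of a number came from separate RNA, so p-values from the 12 libraries measure only the spread between these libraries, which may be technical.

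PIWI-interacting RNAs (piRNAs) are small RNAs that guide Piwi proteins to transposon transcripts and other targets in the germ line. Long precursor transcripts are cut at the mitochondrial surface in germ granules (nuage), loaded onto a Piwi protein, trimmed and methylated. In mouse, Piwil2 (MILI) is made from fetal germ cells onwards, Piwil4 (MIWI2) is known for nuclear silencing in fetal prospermatogonia, and Piwil1 (MIWI) is known for pachytene spermatocytes and round spermatids. Germ cells at 12 dpp are spermatogonia and spermatocytes of early meiosis.

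The promoter windows of members are described here, and no link between their sequence and the differences between samples was tested. RefSeq promoter windows (mouse build GRCm38.p6) were given for 7 of the 8 members, in 9 windows, and Piwil2 had no entry. The 250 bases before the annotated start are printed 5′ to 3′ in the direction of the gene. Capitals mark each match to the E-box CACGTG, which reads the same on both strands, and to the MYB-type sites CAACNG on either strand, with G or T at the N and with T also allowed as the first letter, so that a site on the other strand appears as its reverse complement. The windows are those of Piwil1 (chr5:128735996-128736245, plus strand), Mov10l1 (chr15:88982744-88982993, plus strand), Mael (chr1:166238745-166238994, minus strand) and Fkbp6 (the first of its windows, chr5:135350045-135350294, minus strand).
Piwil1: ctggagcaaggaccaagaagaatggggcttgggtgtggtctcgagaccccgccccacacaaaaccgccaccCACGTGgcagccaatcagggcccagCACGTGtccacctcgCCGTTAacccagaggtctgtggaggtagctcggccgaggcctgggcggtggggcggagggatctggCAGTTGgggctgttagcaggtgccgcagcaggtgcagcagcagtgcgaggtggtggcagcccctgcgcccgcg
Mov10l1: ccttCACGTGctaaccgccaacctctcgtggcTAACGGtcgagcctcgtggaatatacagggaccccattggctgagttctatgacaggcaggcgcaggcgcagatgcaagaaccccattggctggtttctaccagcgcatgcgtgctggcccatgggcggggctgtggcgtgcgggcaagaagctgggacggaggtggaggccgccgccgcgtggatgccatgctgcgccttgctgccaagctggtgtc
Mael: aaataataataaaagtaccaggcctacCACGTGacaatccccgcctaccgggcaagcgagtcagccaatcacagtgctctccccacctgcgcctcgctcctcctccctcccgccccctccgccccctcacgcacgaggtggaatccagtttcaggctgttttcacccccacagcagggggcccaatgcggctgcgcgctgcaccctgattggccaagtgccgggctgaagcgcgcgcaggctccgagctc
Fkbp6: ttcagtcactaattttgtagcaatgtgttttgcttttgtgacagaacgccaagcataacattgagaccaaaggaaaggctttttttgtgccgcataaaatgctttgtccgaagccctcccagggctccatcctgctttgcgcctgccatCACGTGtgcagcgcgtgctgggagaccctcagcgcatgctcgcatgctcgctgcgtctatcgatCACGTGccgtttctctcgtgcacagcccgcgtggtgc
The E-box was found in 5 of the 7 members with a window (Piwil1, Mov10l1, Mael, Ddx4 and Fkbp6), or 6 of their 9 windows, and in 6.02% of all 32851 promoter windows of this length. The windows of Fkbp6 overlap and hold the same E-boxes, so the 6 windows count that promoter more than once. In Piwil1 the E-boxes began 179 and 154 bases before the start, and in Fkbp6 101 and 37 bases before it. A MYB-type site was found in Piwil1 (139 and 73 bases before the start), Mov10l1 (218 bases) and the second window of Fkbp6, or 3 of the 9 windows, against 23.7% of all windows. No overlap occurred between E-box and MYB-type matches. The windows of Piwil4 and Asz1 held neither, which says only that these letters are absent from the windows searched. The CCAAT box, searched on both strands but not marked, was found in 4 of the 7 members. It was in 4 of the 9 windows, against 33.8% of all windows. These matches are descriptions of sequence, and no binding was measured.

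Each level is in FPKM, a fragment count divided by transcript length and by library total, so levels of different genes can be set side by side. The levels of the 8 genes spanned from 5.97 ± 1.54 FPKM for Piwil4 to 188 ± 20.2 FPKM for Fkbp6 (mean ± SD of the 4 sample-number means, n = 4). In descending order they were Fkbp6, Mael (111 ± 23.4), Ddx4 (86.8 ± 17.2), Mov10l1 (77.2 ± 12.9), Piwil2 (69.6 ± 15.5), Asz1 (23.1 ± 4.91), Piwil1 (6.50 ± 2.34) and Piwil4. Fkbp6 lay above 99.2% of the genes in the table and Piwil4 above 73.6%. The values of Fkbp6 and Mael, of Piwil2 and Asz1, and of Asz1 and Piwil1 did not overlap over the 4 sample numbers. Piwil2 exceeded Asz1 3.01-fold (log2 ratio 1.59 ± 0.06, SD, n = 4), and Asz1 exceeded Piwil1 3.66-fold (1.87 ± 0.66). Mov10l1 and Piwil2 differed 1.12-fold with overlapping values, although Mov10l1 was the higher in each of the 4 samples. The order of Ddx4 and Mov10l1 turned in 186wt (lowest log2 ratio -0.11), and that of Piwil1 and Piwil4 in 444wt (log2 ratio -0.93). In an exact two-sided sign-flip permutation test over 4 values the smallest possible p is 0.125, so no pair of neighbours could pass 0.05. That p of 0.125 was reached by 5 of the 7 pairs (adjusted over the 7 pairs, 0.175), whereas Ddx4 over Mov10l1 gave exact p = 0.250 (adjusted 0.292) and Piwil1 over Piwil4 gave exact p = 0.875 (adjusted 0.875). The pairs and their direction were set by the order of these same values, so the p-values only describe how steadily that order held.

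**Figure D1:**
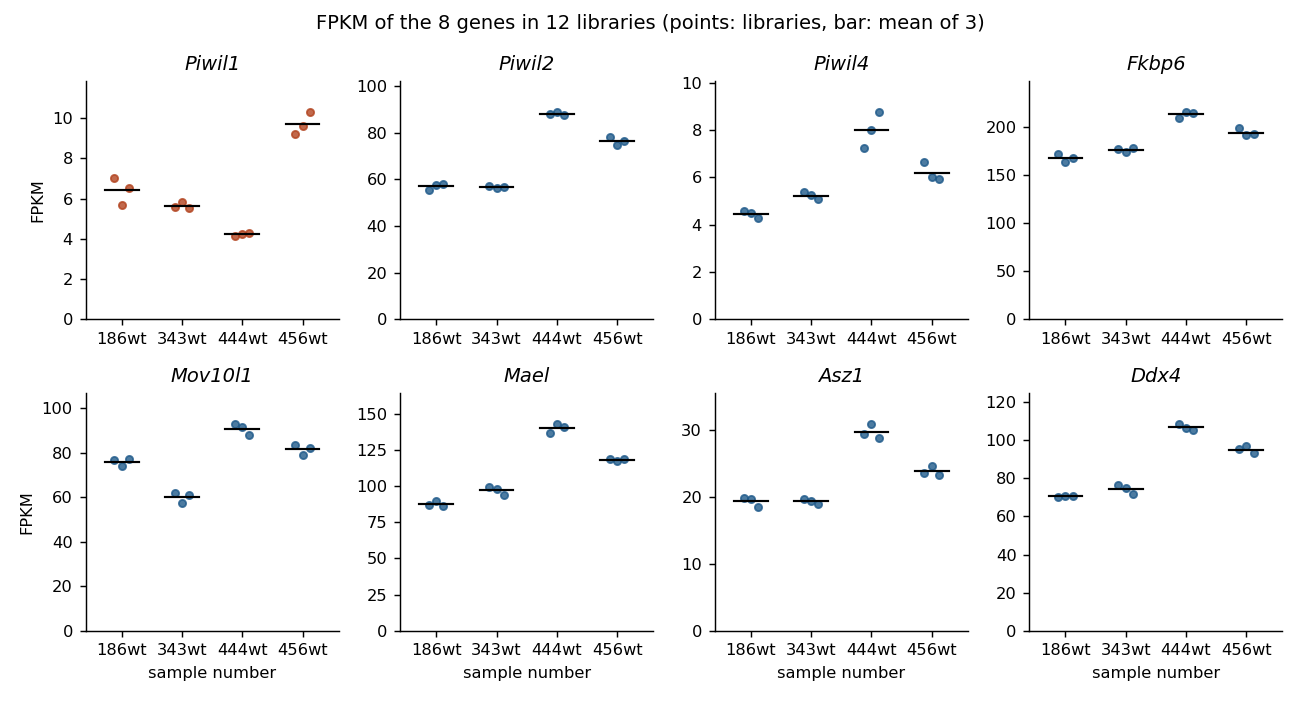
FPKM (y axis, from 0, own scale for each gene) of the 8 piRNA pathway genes by sample number (x axis); points are the 12 libraries and bars the means of 3 libraries. Piwil1 (red) was lowest in 444wt (4.22) and highest in 456wt (9.72), whereas the other 7 genes (blue) had their highest mean in 444wt.

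Piwil1, the Piwi protein of pachytene spermatocytes and round spermatids, lies at chr5:129242121-129261349 on the plus strand (NCBI build 37, as all gene positions here) and has 22 exons. Its 3 libraries measured 7.03, 5.69 and 6.52 FPKM in 186wt, 5.56, 5.81 and 5.52 in 343wt, 4.14, 4.24 and 4.27 in 444wt, and 9.22, 9.64 and 10.3 in 456wt. All libraries of 456wt lay above, and all libraries of 444wt below, every other library, whereas those of 186wt and 343wt overlapped. The highest mean was 2.31-fold the lowest, the widest ratio among the 8 genes. An estimated 233 to 597 fragments stood behind each Piwil1 value. Against the mean of the other 3 sample numbers, Piwil1 was lower in 444wt by a log2 difference of -0.73 ± 0.062 (SE, limma adjusted p = 2.29e-06) and higher in 456wt by 0.85 ± 0.062 (adjusted p = 7.92e-07).

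Piwil2, the Piwi protein that works in piRNA production in the cytoplasm, lies at chr14:70772287-70828901 on the minus strand. Its libraries measured 55.4, 57.5 and 57.9 FPKM in 186wt, 57.2, 56.4 and 56.8 in 343wt, 88.2, 88.9 and 87.7 in 444wt, and 78.1, 74.8 and 76.4 in 456wt. The libraries of 444wt were above all others and those of 456wt next, without overlap, whereas 186wt and 343wt overlapped. The difference of 444wt from the other numbers was 0.49 ± 0.0185 on the log2 scale (SE, limma adjusted p = 3.56e-09). Piwil2 varied between the sample numbers with an SD 13.7 times that between libraries of a number, the highest such ratio of the 8 genes.

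Piwil4, whose protein acts in the nucleus, lies at chr9:14500674-14545177 on the minus strand. Its libraries measured 4.56, 4.49 and 4.29 FPKM in 186wt, 5.37, 5.25 and 5.07 in 343wt, 7.24, 8.03 and 8.77 in 444wt, and 6.66, 6.03 and 5.92 in 456wt. The 4 sample numbers did not overlap, and 444wt was highest and 186wt lowest (1.80-fold). Piwil4 was higher in 444wt by 0.60 ± 0.0619 (log2, SE, limma adjusted p = 1.13e-05), and its difference in 456wt was 0.12 (adjusted p = 0.175). Its values rested on an estimated 179 to 400 fragments. An exon of Piwil4 overlaps Gm10706, an antisense transcript at 0.0283 FPKM, and the strand handling of the reads is not given in the sources used here.

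Fkbp6, a co-chaperone that works with HSP90 in loading piRNAs onto Piwi proteins, lies at chr5:135767574-135825895 on the minus strand. Its means were 168 ± 4.25 FPKM in 186wt, 176 ± 1.74 in 343wt, 213 ± 3.08 in 444wt and 194 ± 4.04 in 456wt (SD of 3 libraries). Fkbp6 had the highest level of the 8 genes and the narrowest spread, with 444wt 1.27-fold above 186wt and no overlap between libraries of different numbers.

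Mov10l1, the RNA helicase that binds piRNA precursors at the start of their processing, lies at chr15:88813339-88885582 on the plus strand. Its means were 76.1 ± 1.56 FPKM in 186wt, 60.2 ± 2.46 in 343wt, 90.9 ± 2.49 in 444wt and 81.7 ± 2.28 in 456wt. Like Piwil1 and unlike the other members, Mov10l1 did not pass the test in 186wt, with a log2 difference of -0.01 (limma adjusted p = 0.869). Its lowest values were those of 343wt (-0.46, limma adjusted p = 1.54e-07), and no libraries of different numbers overlapped. Asz1 (GASZ), a scaffold protein of germ granules at mitochondria, lies at chr6:18000964-18059061 on the minus strand. Asz1 measured 19.3 ± 0.761 FPKM in 186wt, 19.4 ± 0.329 in 343wt, 29.7 ± 1.11 in 444wt and 23.8 ± 0.652 in 456wt. The libraries of 186wt and 343wt overlapped, and those of 456wt and then 444wt lay above them.

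Mael (maelstrom), a germ granule protein needed for transposon silencing, lies at chr1:168131516-168168875 on the minus strand. Mael measured 87.8 ± 1.72 FPKM in 186wt, 96.9 ± 2.96 in 343wt, 140.2 ± 3.16 in 444wt and 118 ± 0.843 in 456wt, with no overlap between the numbers. Ddx4 (VASA), the RNA helicase used as a general marker of germ cells, lies at chr13:113388541-113442518 on the minus strand. Ddx4 measured 70.6 ± 0.168 FPKM in 186wt, 74.5 ± 2.31 in 343wt, 107 ± 1.60 in 444wt and 95.1 ± 1.88 in 456wt, again without overlap.

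All 8 members differed between the sample numbers in the limma F-test on log2(FPKM + 0.1), at adjusted p-values from 1.33e-09 (Piwil2) to 1.32e-05 (Piwil4). Of all 20795 genes tested, 58.2% passed the same test, and the median log2 range between the highest and lowest sample number was 0.63 for the members and 0.55 for all genes. Differences of this size were therefore common in the table. In 444wt, 7 of the 8 members were higher than in the other 3 sample numbers, against 26.5% of all genes, and only Piwil1 was lower, against 17.8%. In 456wt, 7 members were higher (all but Piwil4), against 22.9% of all genes, and none was lower, against 13.6%. Scaled to spermatogonia markers, an alternative given with the marker genes, 1 member was higher and 1 lower in 456wt. For that scale no share of all genes is given. In 343wt all 8 members were lower, against 25.6% of all genes, and none was higher, against 14.5%. In 186wt 6 members were lower, against 21.9%, and Piwil1 and Mov10l1 did not pass the test. Highest means in 444wt were found for 7 members and for 36.3% of all genes tested. The order seen in Piwil1, lowest in 444wt and highest in 456wt, was found in 5.43% of all genes tested.

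The ratio of Piwil1 to each of the other 7 genes showed the same contrast without reference to any scaling between libraries. On the log2 scale it was lower in 444wt than in the other 9 libraries by -0.99 for Fkbp6 (mean -5.66 against -4.67) at the least and by -1.35 for Piwil4 (-0.92 against 0.43) at the most. For all 7 genes the highest ratio among the 3 libraries of 444wt was below the lowest among the other 9. This separation was fixed by the FPKM values themselves. Every 444wt library of Piwil1 lay below all others, and every 444wt library of the other 7 genes lay above all others. The 7 ratios also share Piwil1 and are not separate observations. The sample number 444wt was singled out after its values were seen, so these ratios are given without a test.

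Division by Ddx4 showed how far the other genes kept a fixed proportion to this germ cell marker. Mael was 1.24, 1.30, 1.31 and 1.24 times Ddx4 in 186wt, 343wt, 444wt and 456wt, and its log2 range over the 4 numbers was 0.08 as a ratio against 0.68 in FPKM. Piwil2 was 0.807, 0.762, 0.826 and 0.803 times Ddx4, a log2 range of 0.12 against 0.64. The range of Asz1 was 0.15 as a ratio against 0.62, and that of Piwil4 was 0.25 against 0.85. Mov10l1 kept more of its range (0.42 against 0.60) and was highest relative to Ddx4 in 186wt (1.08) and lowest in 343wt (0.807). The ratio of Fkbp6 was 2.38 and 2.36 in 186wt and 343wt and 1.99 and 2.04 in 444wt and 456wt, so relative to Ddx4 it was lowest in 444wt. Piwil1 was the exception in the other direction, with a wider range as a ratio (1.37) than in FPKM (1.21), from 0.0394 times Ddx4 in 444wt to 0.102 in 456wt.

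**Figure D2:**
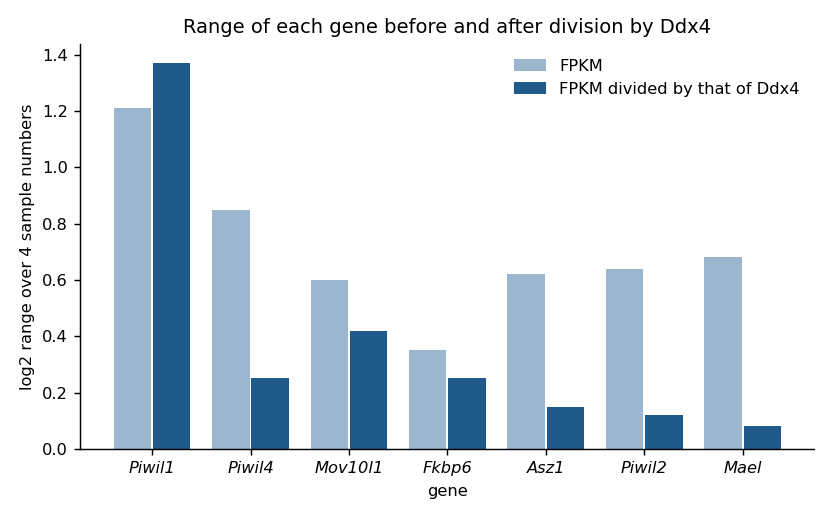
Bars give the log2 range over the 4 sample numbers (y axis, highest minus lowest mean) of 7 genes (x axis), for FPKM (light) and for FPKM divided by that of Ddx4 in the same sample number (dark). The range narrowed from 0.68 to 0.08 for Mael and from 0.64 to 0.12 for Piwil2, and widened from 1.21 to 1.37 for Piwil1.

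Over the 12 libraries the 21 pairs among the 7 genes other than Piwil1 had Pearson correlations of log2(FPKM + 0.1) from 0.62 to 0.99, with a median of 0.96 (Spearman from 0.75 to 0.97). The 7 pairs with Piwil1 ranged from -0.34 to -0.07. The 12 libraries form 4 sets of 3 that share a sample number, so each correlation rests mainly on 4 levels. When a sample number was left out, the pairs with Piwil1 spread from -0.95 to 0.93 and the other 21 pairs from 0.23 to 0.99, so the values of both sets of pairs depended on which sample numbers were included. The genes most like Piwil1 over the 12 libraries, of 14254 compared, were Serpinb6b (a serine protease inhibitor, r = 0.973), Dstn (the actin-depolymerising destrin, 0.973) and Vwa1 (an extracellular matrix protein, 0.970). Dstn measured 174, 170.2, 159 and 202 FPKM in 186wt, 343wt, 444wt and 456wt. The genes most like Piwil2 were E2f1 (a cell cycle transcription factor, 0.996), Nup93 (a nuclear pore protein, 0.996) and D6Mm5e (0.995). Those most like Piwil4 were Rcc2 (0.986), Sertad4 (0.979) and Trim71 (an RNA-binding ubiquitin ligase, 0.978). A correlation above 0.9 was found with 74 genes for Piwil1 (0.519%), 1308 for Piwil2 (9.18%) and 638 for Piwil4 (4.48%).

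The marker genes of the cell types that the preparation could hold varied between the same samples. Spermatogonia markers (7 genes, Uchl1 and Dmrt1 the highest) summed to 617, 648, 878 and 764 FPKM in 186wt, 343wt, 444wt and 456wt, and markers of meiotic prophase (11 genes, Stag3 and Syce2 the highest) to 493, 393, 647 and 474. Sertoli cell markers (8 genes, Clu and Aard the highest) summed to 4013, 4136, 2308 and 2485 FPKM, so the enriched cells labelled spermatocytes also held abundant RNA of the somatic cells of the tubule. All 8 Sertoli genes were lower in 444wt (17.8% of all genes) and in 456wt (13.6%), the samples in which most members were higher. In bulk RNA, fewer cells of a type and less RNA per cell cannot be told apart, and the part of cell makeup in the differences of the members was not tested. With each library scaled to the 7 spermatogonia markers, an alternative added after the data were seen, the median of all genes shifted by 0.262, 0.149, -0.287 and -0.124 (log2) in 186wt, 343wt, 444wt and 456wt. The share of all genes called in each comparison on that scale is not given here, so the member counts have no background beside them. On that scale 4 members passed the test as higher in 444wt, with smaller log2 differences than before: Piwil2 (0.10, from 0.49), Piwil4 (0.21, from 0.60), Mael (0.09, from 0.49) and Asz1 (0.13, from 0.52). Mov10l1 (-0.06, limma adjusted p = 0.0990) and Ddx4 (0.04, adjusted p = 0.0988) did not pass, and Fkbp6 turned to lower (-0.14, adjusted p = 0.000152). Piwil1 was lower in 444wt there too (-1.11, adjusted p = 2.89e-08) and higher in 456wt (0.69, adjusted p = 4.64e-06). Of the 7 members that were higher in 456wt, Piwil1 was the 1 still called on that scale, and Fkbp6 turned to lower (-0.10, adjusted p = 0.00330). The log2 ranges between sample numbers narrowed there to 0.07 for Ddx4 (from 0.60), 0.12 for Mael (from 0.68), 0.17 for Asz1 (from 0.62), 0.19 for Piwil2 (from 0.64), 0.21 for Fkbp6 (from 0.35), 0.28 for Piwil4 (from 0.83) and 0.45 for Mov10l1 (from 0.60), and widened to 1.35 for Piwil1 (from 1.18).

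Markers of pachytene and later spermatocytes summed to 95.8, 77.6, 82.5 and 115 FPKM in 186wt, 343wt, 444wt and 456wt (9 genes, Hspa2 and Tbpl1 the highest). Of the 8 that could be tested, 5 were lowest in 444wt and highest in 456wt, the order of Piwil1, against 5.43% of all genes tested. Of these 5, Adam3 and Spag6 were near the floor, at means of 0.218 and 0.715 FPKM. Ldhc, the testis form of lactate dehydrogenase, measured 5.96, 7.42, 1.84 and 13.5 FPKM, and Adam2, a sperm surface protein, 2.29, 2.35, 0.657 and 4.61. Clgn, a chaperone of spermatocytes, measured 15.2, 14.7, 11.6 and 22.3 FPKM. Hspa2 (43.1, 27.1, 36.2 and 40.8) and Tbpl1 (27.9, 24.7, 31.1 and 31.2) had other orders. The order of Piwil1 was also that of all 5 endothelial markers, against the same 5.43% of all genes tested. The endothelial markers summed to 16.2, 21.0, 13.4 and 34.2 FPKM (Cdh5, 6.95, 11.3, 6.44 and 14.0, and Pecam1, 3.35, 3.63, 2.45 and 6.82, the highest). Ldhc, Adam2 and Clgn were named for their order, after their values were seen. The part of either cell type in the Piwil1 values was not tested.

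**Figure D3:**
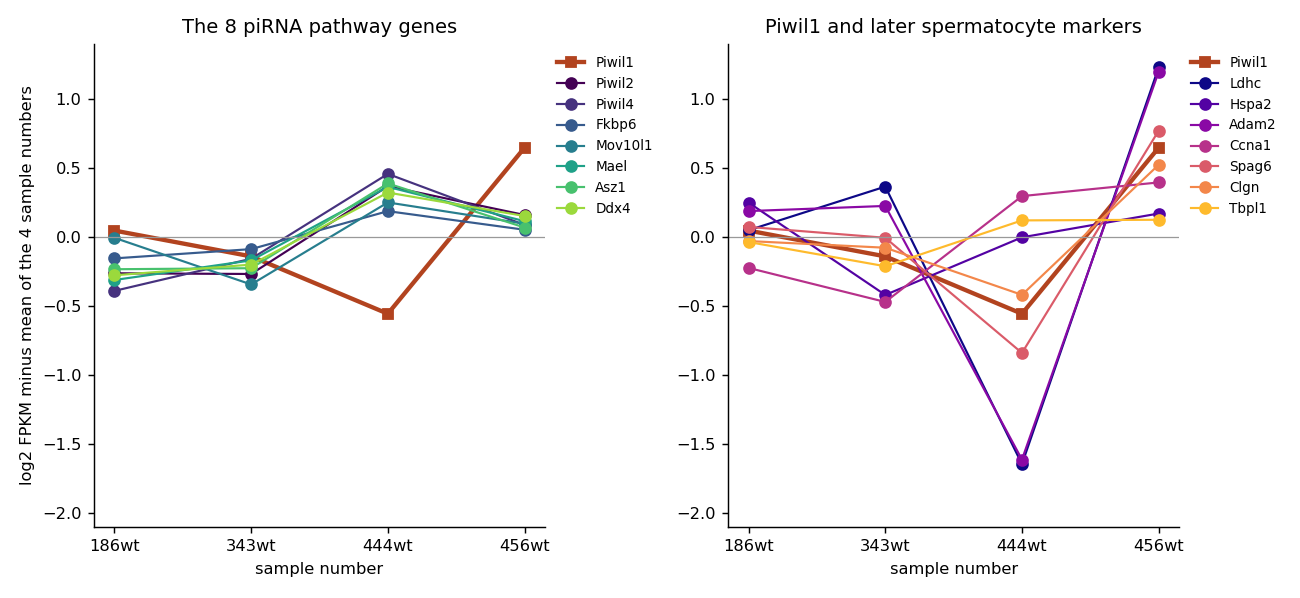
Deviation of log2 FPKM from the mean of the 4 sample numbers (y axis) by sample number (x axis), at left for the 8 piRNA pathway genes and at right for Piwil1 (red squares) and markers of pachytene and later spermatocytes. Pgk2 and Adam3, at means of 0.0900 and 0.218 FPKM, are not drawn. Ldhc, Adam2, Spag6 and Clgn share with Piwil1 the lowest value in 444wt and the highest in 456wt, whereas Hspa2, Tbpl1 and Ccna1 do not.

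The remaining somatic markers varied as well. Leydig cell markers (Hsd3b1 and Insl3 the highest) summed to 15.8 to 107 FPKM over the 4 sample numbers and macrophage markers (Lyz2 and Mrc1) to 7.60 to 32.7, both lowest in 444wt and highest in 343wt. Peritubular myoid markers (Acta2 and Myh11) summed to 253 to 1112 FPKM and erythroid markers (Hbb-b1 and Hba-a1) to 29.3 to 172. Round spermatid markers (Spaca1 and Tnp1) summed to at most 5.47 FPKM, and Prm2, a protamine of late spermatids, was listed at 0 in every library.

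Outside the 8 members, 31 genes of the piRNA pathway were examined by role. All 31 were in the table, 2 of them under older names (Henmt1 as 4921515J06Rik and Btbd18 as Gm13718), and 28 differed between the sample numbers, against 58.2% of all genes. They resembled the 7 members other than Piwil1 in that 25 were higher in 444wt (26.5% of all genes) and none was lower, and 21 had their highest mean there (36.3%). In 456wt, 23 were higher (22.9% of all genes) and 3 lower (13.6%). In 343wt, 23 were lower (25.6%) and 1 higher (14.5%), and in 186wt 21 were lower (21.9%) and 2 higher (14.8%).

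Among the genes of transcription, Mybl1 ran against the rest. Mybl1 encodes A-MYB, the transcription factor known for driving pachytene piRNA precursors, and measured 11.3, 9.70, 8.56 and 7.0 FPKM in 186wt, 343wt, 444wt and 456wt. It was higher in 186wt (log2 difference 0.43, limma adjusted p = 8.86e-05) and lower in 456wt (-0.48, adjusted p = 3.99e-05), so Piwil1 had its highest level in the sample where Mybl1 had its lowest. Other samples did not mirror this. In 444wt, where Piwil1 was lowest, Mybl1 was not called (-0.10, limma adjusted p = 0.193). In 186wt, where Mybl1 was highest, Piwil1 was not called (0.06, limma adjusted p = 0.524). A relation between Mybl1 and Piwil1 was not tested. Tcfl5, a transcription factor of spermatocytes, measured 22.1, 23.3, 29.9 and 30.5 FPKM, and Btbd18, a regulator of pachytene piRNA loci, 13.6, 11.4, 18.1 and 15.4. Mybl1 and Btbd18, unlike Tcfl5, were not called in 2 of the 4 comparisons each.

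All 8 genes of biogenesis and trimming differed between the sample numbers (58.2% of all genes), and 7 were higher in 444wt (26.5% of all genes). Gpat2, a mitochondrial membrane protein of the pathway, measured 41.6, 32.3, 52.4 and 45.7 FPKM (F-test adjusted p = 4.17e-09, limma), with its low value in 343wt as in Mov10l1. Pld6, the mitochondrial nuclease that cuts precursors, measured 13.9, 15.8, 21.0 and 19.0 FPKM, and Tdrkh, the partner that holds Piwi proteins for trimming, 21.4, 20.0, 31.0 and 28.3. Pnldc1, the trimming exonuclease, measured 17.1, 18.9, 23.6 and 23.9 FPKM. Henmt1, which methylates piRNA ends, rose furthest in 444wt among these genes (7.79, 8.05, 14.1 and 11.6 FPKM, log2 difference 0.65). Gtsf1, a zinc finger protein that assists Piwi cleavage, measured 21.1, 23.0, 33.3 and 27.8 FPKM. Mov10, the broadly expressed relative of Mov10l1, stayed within 1.10-fold (60.0, 58.1, 61.3 and 55.8 FPKM) and was lower in 456wt (-0.10, adjusted p = 0.000389).

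Of the 8 genes listed as Tudor domain partners, 6 differed between the sample numbers (58.2% of all genes) and were higher in 444wt (26.5%). Tudor domains bind methylated arginines, and whether each of the 8 binds Piwi proteins was not examined here. Tdrd1 (29.1, 28.5, 38.5 and 37.3 FPKM), Tdrd9 (26.5, 23.1, 34.2 and 33.6) and Rnf17 (24.8, 25.1, 37.1 and 31.4) were the most abundant. Tdrd7 was nearly level (22.2, 22.1, 24.5 and 24.7 FPKM), and Tdrd5 (11.1, 11.3, 15.6 and 16.2) and Tdrd12 (10.4, 9.65, 12.7 and 11.8) were less abundant. Tdrd6, which is known for round spermatids, was the only gene of the 31 with the order of Piwil1 (0.523, 0.710, 0.450 and 1.21 FPKM). At these low levels Tdrd6 was called higher in 456wt (log2 difference 1.07, limma adjusted p = 0.0312). Its differences between the 4 sample numbers did not pass the F-test (adjusted p = 0.0667, limma). Tdrd3, at 9.89 ± 0.484 FPKM (SD, n = 4), did not pass either (adjusted p = 0.166).

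The arginine methyltransferase Prmt5, which modifies Piwi proteins, measured 36.0, 36.5, 40.6 and 49.5 FPKM and was highest in 456wt, whereas its partner Wdr77 was highest in 444wt (68.4, 66.9, 88.3 and 80.8). The chaperones Hsp90ab1 (772, 863, 909 and 864 FPKM) and Hsp90aa1 (352, 335, 465 and 407) were the most abundant genes of the list, and their adaptor Stip1 measured 78.6, 83.0, 96.0 and 97.5 FPKM. These chaperones serve many proteins other than Piwi proteins.

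Of the 7 genes of nuclear silencing, 6 were higher in 444wt (26.5% of all genes) and all 7 had their highest mean there (36.3%). Tex15, a partner of Piwil4 in transposon methylation, measured 72.8, 52.0, 90.4 and 61.6 FPKM (F-test adjusted p = 4.81e-09, limma), and was higher in 186wt and lower in 456wt, whereas Piwil4 was lower in 186wt. Morc1, a silencing ATPase, measured 9.89, 12.8, 17.7 and 15.0 FPKM. Piwil4 had the same order, as did Mael, Asz1, Ddx4, Fkbp6, Dnmt3a, Dnmt3b and Uhrf1, so this order was not particular to Morc1. Dnmt3b measured 24.5, 24.7, 38.1 and 31.8 FPKM, and Dnmt3a 40.4, 45.7, 48.6 and 45.8. Uhrf1, a cofactor of maintenance methylation, measured 47.4, 47.7, 71.8 and 66.6 FPKM. Dnmt3l, the cofactor known for fetal germ cells, was at 1.13 ± 0.259 FPKM (SD, n = 4) and did not pass the F-test (adjusted p = 0.105).

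**Figure D4:**
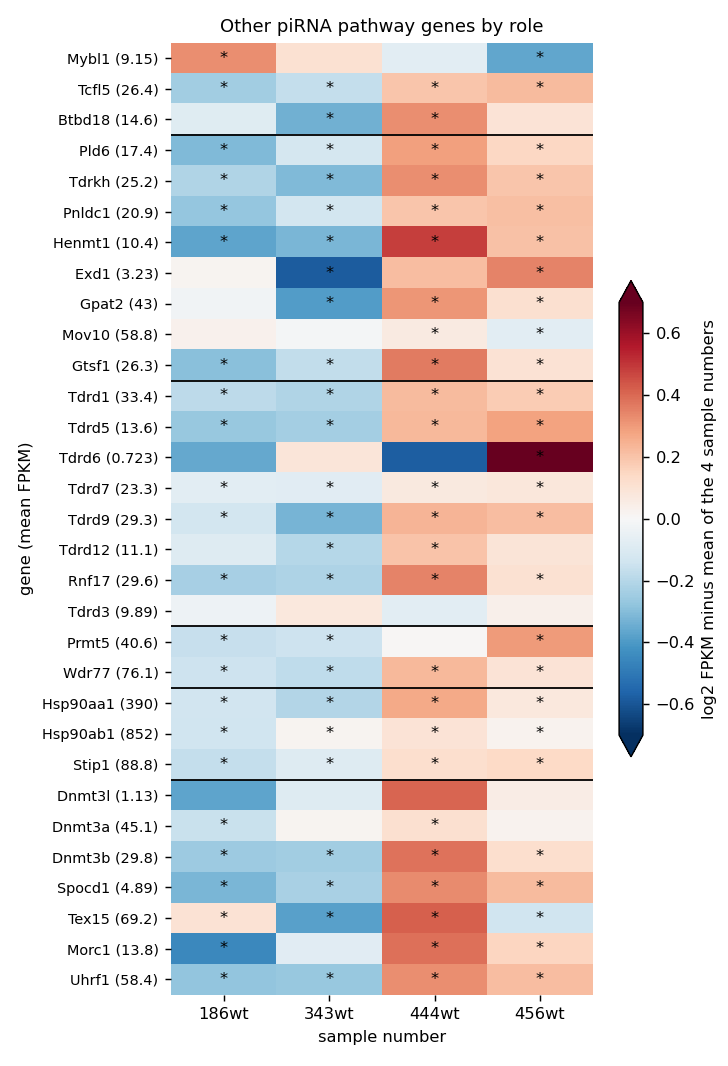
Deviation of log2 FPKM from the mean of the 4 sample numbers (color; saturated beyond the ends of the scale) for 31 other piRNA pathway genes (rows, mean FPKM in parentheses, lines between roles: transcription, biogenesis and trimming, Tudor domain partners, arginine methylation, chaperone, nuclear silencing) by sample number (columns). Stars mark a limma adjusted p under 0.05 for that number against the other 3. In 444wt 25 genes were higher (26.5% of all genes), while Mybl1 was highest in 186wt and Tdrd6 in 456wt.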

How the data were processed

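The authors enriched germ cells from testes by collagenase and trypsin digestion and sequenced messenger RNA as paired reads. The authors aligned reads to the transcriptome of NCBI build 37 (mm9) with Bowtie 0.12.9 and quantified genes with RSEM 1.2.8, and deposited FPKM values to 2 decimals for 37620 genes. Library totals were estimated here from the step that 1 fragment makes in FPKM of 2904 genes with 1 transcript (12900000 to 17900000 fragments per library, median 14900000), and fragments per gene assume its longest transcript. The 9 other samples of the series were not analysed here.

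The 3 libraries of a sample number were averaged for levels. Tests used limma 3.58.1 in R 4.3.3 (empirical Bayes with trend) on log2(FPKM + 0.1) for the 20795 genes whose mean reached 0.1 FPKM, with 4 groups of 3 libraries, Benjamini-Hochberg adjustment over all genes and a threshold of 0.05. Fold changes on this scale understate those of low genes. The fit was tested on simulated data. Members and lists were chosen with earlier results of these data known. Named were all members, other pathway genes whose mean reached 10 FPKM or the 3 smallest F-test p-values, the 3 genes most like each Piwi gene (among those averaging 1 FPKM or more) and the 1 or 2 highest of each marker list; others were named after their values were seen (Mybl1, Tdrd3, Tdrd6, Dnmt3l, Ldhc, Adam2, Clgn and Prm2). Alternatives changed the pseudocount, filter, scaling, libraries and the replicate block. Python 3.11.15 was used for the rest.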

Additional observations from a re-analysis of the deposited data

How the results depend on the processing

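Under other pseudocounts (0.01 and 1), filters (none, or a mean of 1 FPKM or more), scalings (TPM or upper quartile), and with a library or a sample number left out, all 8 members differed between the sample numbers. The count of other pathway genes was 27 to 29 with a library or sample number left out, and that of all genes 9848 to 11779 (12107 with all libraries). Library numbers did not pair the samples (correlation of deviations for 18 pairs with the same number from -0.0648 to 0.128), and with library number as a replicate block 11774 genes, 8 members and 28 pathway genes were called. With a library left out, 6 to 8 members were lower in 343wt and 5 to 7 higher in 456wt. Scaling to spermatogonia markers moved the members called in each comparison. The counts went from 0 to 3 higher and from 6 to 1 lower in 186wt. They went from 0 to 1 higher and from 8 to 4 lower in 343wt. In 444wt they went from 7 to 4 higher and from 1 to 2 lower, and in 456wt from 7 to 1 higher and from 0 to 1 lower. The share of all genes called in these comparisons on that scale is not given. The log2 ranges of the 7 members other than Piwil1 narrowed there, to between 0.07 (Ddx4) and 0.45 (Mov10l1). All 8 members still passed the F-test (largest adjusted p 0.0472, Piwil4). Of all genes, 13222 passed it on that scale, against 12107 before. The log2 ratio of Piwil1 to Piwil4 (0.09) ranged from -0.10 to 0.43 with a sample number left out, and turned without 186wt (-0.06) and without 456wt (-0.10), which leaves fewer samples with Piwil1 the higher. Of the correlations between members, 16 of 84 values by Spearman's rho, by the 4 means or after upper quartile scaling moved by more than their spread, none of them with a change of sign, whereas with a sample number left out the pairs with Piwil1 took either sign (-0.95 to 0.93) and the others fell to as low as 0.23. Piwil1 and Piwil4 rested on the fewest fragments (179 to 597 per library), and the SD of their log2 ratio over the 4 sample numbers was 0.72.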

Other observations

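Of the 11 meiotic prophase markers in the same libraries, 10 were highest in 444wt, against 36.3% of all genes tested. All 11 were lower in 343wt than in the other sample numbers, against 25.6% of all genes. Dmc1, the meiotic strand exchange protein, measured 21.3, 14.6, 29.9 and 14.7 FPKM in 186wt, 343wt, 444wt and 456wt. Spo11, which makes the meiotic double-strand breaks, measured 6.79, 2.82, 7.19 and 5.06 FPKM. Rec8, a meiotic cohesin subunit, was the marker with its highest level in 186wt (27.0, 17.6, 19.2 and 18.6 FPKM). The lowest mean in 343wt and the highest in 444wt, found for 9 of the 11, was also the order of Piwil2 and Mov10l1. The share of all genes with this order was not counted. For Piwil2 the order rested on 56.8 FPKM in 343wt against 57.0 in 186wt, with overlapping libraries. For Dmc1 it rested on 14.6 FPKM in 343wt against 14.7 in 456wt. Dmc1, Spo11 and Rec8 were named after their values were seen.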
